A study of Mus musculus with 12 samples.

Results

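The genes of the immunoproteasome and of MHC class I peptide loading were followed in the striatum of Huntington's disease knock-in mice with and without cGAS. The set was chosen by symbol and holds 10 of the 55487 genes in the count files. It comprises the inducible catalytic subunits Psmb8, Psmb9 and Psmb10, the PA28 activator subunits Psme1 and Psme2, the peptide transporter subunits Tap1 and Tap2, tapasin (Tapbp), the tapasin-like peptide editor Tapbpl, and beta-2 microglobulin (B2m). All 10 passed the filter on low counts, which left 21309 genes for testing.

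Poly(A) RNA of striatal tissue was sequenced from 12 mice, 3 in each of 4 groups. The cGAS-KO;HD group, called double mutants here, combined the cGAS knockout with a zQ175 neo-deleted knock-in allele. The HD group carried the knock-in allele with cGAS present, and was heterozygous for it, so that one normal Htt allele remained. The cGAS-KO group lacked cGAS and had no knock-in allele, and the WT group was C57BL/6J. The zQ175 allele places an expanded CAG repeat in the mouse Htt gene, and cGAS is the sensor of cytosolic DNA that signals through STING to interferon genes. The series asks whether deletion of cGAS alters disease in the knock-in mice. The labels state neither the sex, age or litter of the mice nor which part of Cgas was deleted.

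The proteasome cuts proteins into peptides. Under interferon, its 3 standard catalytic subunits are replaced by the inducible ones and its core can be capped by PA28, a ring of PA28 alpha and beta, which changes the peptides that leave it. The transporter TAP carries peptides into the endoplasmic reticulum, where tapasin and the tapasin-like protein help MHC class I heavy chains, paired with beta-2 microglobulin, to exchange them for tightly bound ones. In brain, microglia and endothelial cells are the usual sources of these transcripts, and neurons express them at low levels.

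The PA28 alpha gene Psme1 and the tapasin-like gene Tapbpl were higher in every knock-in library than in every library without the knock-in allele. Of all genes tested, 3.38% lay higher in this way. Averaged over both cGAS genotypes, Psme1 rose by a log2 change of 0.33 ± 0.05 (SE) and Tapbpl by 0.44 ± 0.08. The other 8 genes did not pass the test in that comparison, although their log2 changes were all above 0. No gene of the set passed the test for an effect of cGAS deletion, and none differed in its knock-in effect between the cGAS genotypes by the interaction test. Psmb9, one of the inducible subunits, was lower in all 3 cGAS-KO libraries than in every WT library, as were Psmb10 and Tapbpl. Of all genes tested, 4.53% lay lower in cGAS-KO than in WT libraries without overlap. B2m spread from 73.1 to 212 CPM (counts scaled to library size) within the cGAS-KO group.

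Libraries held 59195327 to 72765623 counts. Htt was lower with the knock-in allele, at 126 to 142 CPM in double mutants and 131 to 144 CPM in HD mice, against 155 to 179 CPM in cGAS-KO mice and 169 to 179 CPM in WT mice. Cgas was read at 0.798 to 1.15 CPM in double mutants and 1.07 to 1.26 CPM in HD mice, and at 0.572 to 0.882 CPM in cGAS-KO mice against 1.32 to 1.56 CPM in WT mice. It was not called in any of these comparisons, and counts over a whole gene do not check a deletion of part of it. The 10 striatal projection neuron markers (such as Drd1, Drd2 and Ppp1r1b) were all present. All 10 fell with the averaged knock-in effect, where 7.63% of all genes fell. Library cGAS-KO 3 stood apart, with 11.5% of its counts on mitochondrial genes against 5.30% to 9.03% in the other 11 libraries and a summed level of 10 cortical neuron markers of 1274 CPM against 246 to 868 CPM. WT 1 held 246 CPM of these markers against 752 and 868 CPM in WT 2 and WT 3. Xist was high in double mutants 2 and 3, HD 1 and 2, cGAS-KO 3 and WT 1, so each group held both kinds of library in unequal numbers. In bulk tissue, more cells of a type and more RNA per cell cannot be told apart.

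The stretches before the gene starts are shown because interferon acts on these genes through short promoter motifs. They were read from the RefSeq promoter table of GRCm38.p6, which had entries for 8 of the 10 genes. The search covered 250 bases before to 50 after each start, on both strands, for 4 motifs. The interferon-stimulated response element was written as GAAA, any 2 bases, GAAA, the gamma-activated site as TTC, any 3 bases, GAA, the NF-kB motif as GGGA, any 2 bases, TTCC, and the last as CCAAT. Capitals mark the interferon, gamma-activated and NF-kB matches. Below are B2m at chr2:122147527-122147686, Psme1 at chr14:55578374-55578518, Psmb8 at chr17:34198065-34198194 and the stretch between the starts of Psmb9 and Tap1 at chr17:34187331-34187555, all on the plus strand.
B2m: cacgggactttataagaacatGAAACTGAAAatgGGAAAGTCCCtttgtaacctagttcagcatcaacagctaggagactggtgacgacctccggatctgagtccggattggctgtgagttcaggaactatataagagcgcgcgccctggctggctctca
Psme1: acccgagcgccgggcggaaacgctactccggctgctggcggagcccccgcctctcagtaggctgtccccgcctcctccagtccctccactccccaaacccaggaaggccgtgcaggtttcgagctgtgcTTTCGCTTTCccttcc
Psmb8: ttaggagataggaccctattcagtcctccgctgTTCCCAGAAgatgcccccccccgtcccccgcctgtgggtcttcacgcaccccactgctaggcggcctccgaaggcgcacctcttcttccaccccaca
Tap1: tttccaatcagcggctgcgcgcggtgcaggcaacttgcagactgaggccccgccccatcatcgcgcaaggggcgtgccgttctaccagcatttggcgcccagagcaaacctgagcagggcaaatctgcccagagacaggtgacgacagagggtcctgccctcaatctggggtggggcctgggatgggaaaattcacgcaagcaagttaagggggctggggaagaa
The B2m stretch held an interferon-element match at -139 to -130, an NF-kB match at -126 to -117 and a CCAAT match at -53 to -49, counted from the start. The Psme1 stretch held an interferon-element match at +10 to +19, just inside the transcript. The Psmb8 stretch held a gamma-activated match at -97 to -89. Psmb9 and Tap1 face away from each other across the 225 bases shown, which held a CCAAT match on one strand and none of the other motifs. Tapbp had CCAAT matches only, and the entries of Psmb10 and Psme2 had none of the 4 motifs. Of 32851 promoters in the table, 3.44% held the interferon element, 8.30% the gamma-activated site, 1.47% the NF-kB motif and 37.4% CCAAT. Tap2 and Tapbpl were not matched. A match of letters does not show that a factor binds there.

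In GENCODE M21 (GRCm38), Psmb9, Tap1, Psmb8 and Tap2 lie together on chromosome 17, within 34.3 kb that run from 34181987 to 34216321. Tapbp lies 253 kb away at 33915899 to 33929292 of the same chromosome. Psme1 (55578123 to 55581529) and Psme2 (55587441 to 55591113) lie 5.91 kb apart on chromosome 14. The other genes stand apart, with Psmb10 on chromosome 8 (105935735 to 105938444), Tapbpl on chromosome 6 (125223933 to 125231860) and B2m on chromosome 2 (122147686 to 122153083). Psmb9 and Tap1 share 212 exonic bases on opposite strands, and Tapbp shares 904 with the antisense gene Gm19412. The kit keeps strand, but no source used here says whether strand entered the counting, so reads in those stretches could belong to either gene. Tapbp also shares 149 exonic bases with Zbtb22 on the same strand, where counting by strand could not separate them. Psme1 shares 14 exonic bases with Emc9 and Tapbpl shares none with its neighbour Vamp1.

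Per kilobase of the principal transcript, B2m had by far the highest level in WT striatum, at a mean of 126 CPM per kb. Psme1 followed at 26.7, then Psme2 at 13.9, Psmb10 at 13.8 and Tapbp at 8.48 CPM per kb. Tapbpl (3.05), Tap2 (2.54), Psmb8 (1.80), Psmb9 (1.23) and Tap1 (1.22) were the lowest by the same measure. The WT ranges of Psme2 and Psmb10 overlapped, as did those of each pair of neighbours from Tapbpl to Tap1. Psmb8, Psmb9 and Tap1 rested on few reads, with 43 to 146 counts of Psmb9 per library.

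**Figure D1:**
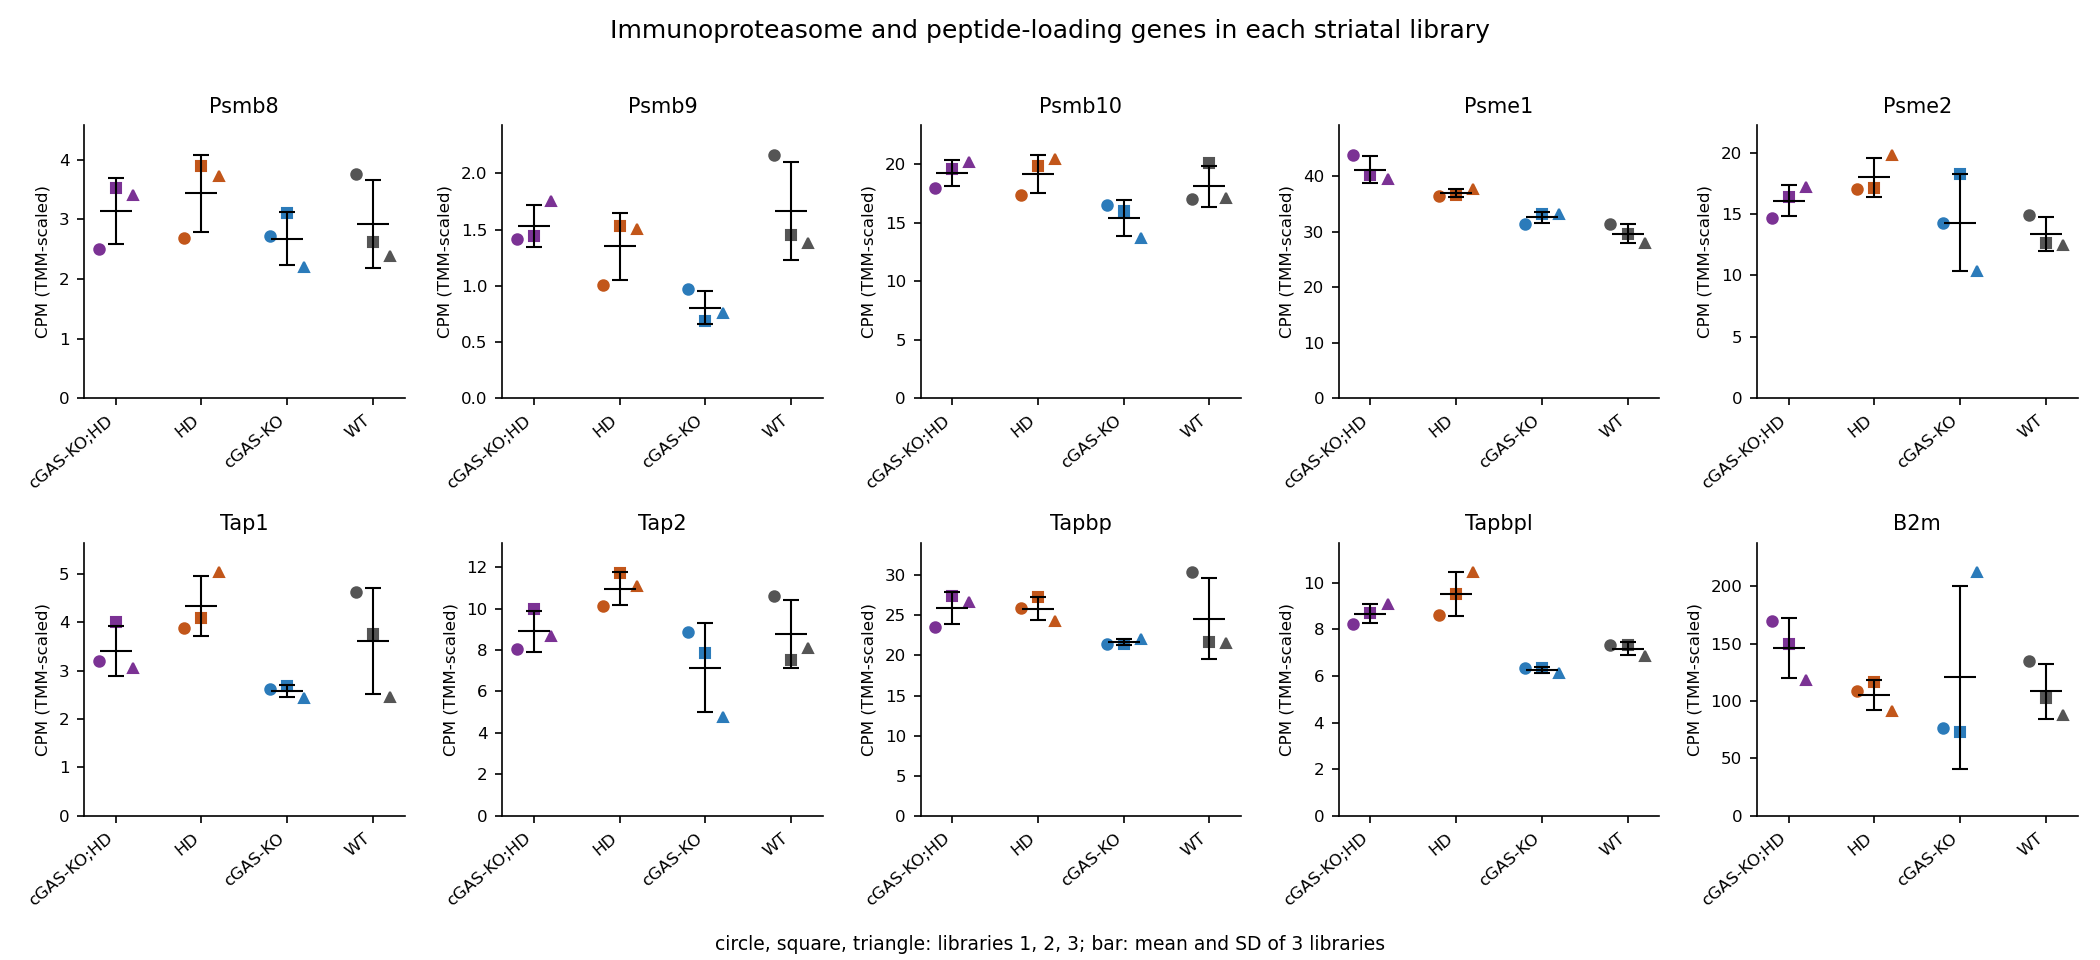
Level of each of the 10 genes in TMM-scaled CPM (y axis, from 0) in cGAS-KO;HD, HD, cGAS-KO and WT striatum (x axis), with 1 point per library and the mean and SD of 3 libraries. Psme1 and Tapbpl lie higher in all 6 knock-in libraries than in the other 6, as do 3.38% of all genes tested. B2m spreads from 73.1 to 212 CPM within the cGAS-KO group alone.

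The question for the knock-in allele was asked with cGAS absent, with cGAS present and averaged over both. Psme1 encodes PA28 alpha, which together with PA28 beta opens the gate of the proteasome core. It was read at 43.9, 40.3 and 39.4 CPM in double mutants, at 36.4, 36.7 and 37.8 CPM in HD mice, at 31.4, 33.2 and 33.2 CPM in cGAS-KO mice and at 31.4, 29.6 and 28.0 CPM in WT mice. The groups with the knock-in allele did not overlap those without it, and the double mutants lay highest. Psme1 rose in double mutants against cGAS-KO mice by a log2 change of 0.34 ± 0.07 (edgeR quasi-likelihood test, adjusted p = 0.0205), and in HD against WT mice by 0.32 ± 0.07 (adjusted p = 0.0274). The knock-in effect of double mutants differed from that of HD mice by 0.02 ± 0.10 on the log2 scale (edgeR, unadjusted p = 0.85), and their average was a log2 change of 0.33 ± 0.05 (adjusted p = 0.00115).

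The call for Psme1 within a single cGAS genotype did not hold without some of its libraries. In double mutants against cGAS-KO mice it was lost without cGAS-KO 1, double mutant 1 or double mutant 2 (adjusted p = 0.0883, 0.0994 and 0.0683 in edgeR). In HD against WT mice it was lost without WT 2, WT 3 or any one of the HD libraries, with adjusted p between 0.064 and 0.148. The averaged effect kept its call when any library was left out. It had the same direction among the libraries high in Xist, at 36.4 to 40.3 CPM in the 4 with the knock-in allele against 31.4 to 33.2 CPM in the 2 without it, and among those low in Xist, at 37.8 to 43.9 CPM in 2 against 28.0 to 33.2 CPM in 4.

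Its partner Psme2, which encodes PA28 beta, was read at 14.7, 16.3 and 17.2 CPM in double mutants and 17.0, 17.1 and 19.8 CPM in HD mice. It was read at 14.3, 18.3 and 10.3 CPM in cGAS-KO mice and 14.9, 12.7 and 12.5 CPM in WT mice. The HD libraries lay above all WT libraries, while the cGAS-KO libraries spread from 10.3 to 18.3 CPM. Psme2 was not called in either knock-in comparison, with a log2 change of 0.17 ± 0.17 in double mutants against cGAS-KO mice and 0.43 ± 0.17 in HD against WT mice (edgeR, adjusted p = 0.672 and 0.18). Without cGAS-KO 3 the first of these was -0.026. The ratio of Psme1 to Psme2 CPM ran from 2.29 to 2.99 in double mutants, 1.90 to 2.14 in HD mice, 1.82 to 3.20 in cGAS-KO mice and 2.10 to 2.33 in WT mice. Psme2 has a retrogene copy, Psme2b, read at 0.356 to 1.19 CPM, so reads of both copies may be divided between them.

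Tapbpl encodes a protein related to tapasin that edits peptides on MHC class I molecules outside the peptide-loading complex. It was read at 8.25, 8.69 and 9.09 CPM in double mutants, at 8.60, 9.50 and 10.5 CPM in HD mice, at 6.33, 6.36 and 6.12 CPM in cGAS-KO mice and at 7.32, 7.33 and 6.86 CPM in WT mice. Again the 6 knock-in libraries lay above the other 6, and here the HD mice had the highest mean and the cGAS-KO mice the lowest. Tapbpl rose in double mutants against cGAS-KO mice by a log2 change of 0.47 ± 0.11 (edgeR, adjusted p = 0.0289), a call that was lost when any one of those 6 libraries was left out (adjusted p between 0.0527 and 0.109). In HD against WT mice its log2 change was 0.41 ± 0.11 and missed the threshold (adjusted p = 0.0504), while DESeq2 and limma-voom called it. The averaged effect was 0.44 ± 0.08 (edgeR, adjusted p = 0.00236) and kept its call without any one library. Its neighbour Vamp1 had log2 changes of -0.13 ± 0.26 in double mutants against cGAS-KO mice and 0.34 ± 0.26 in HD against WT mice. The averaged knock-in change of Vamp1 was 0.11 ± 0.18 on the log2 scale.

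Tapasin itself (Tapbp), which bridges TAP and the class I heavy chain, was read at 23.6, 27.5 and 26.7 CPM in double mutants and 25.9, 27.3 and 24.4 CPM in HD mice, at 21.5, 21.5 and 22.1 CPM in cGAS-KO mice and at 30.4, 21.7 and 21.6 CPM in WT mice. Only WT 1 broke the separation of knock-in libraries from the others. Tapbp was not called, with an averaged log2 change of 0.16 ± 0.09 (edgeR, adjusted p = 0.24). Without WT 1 this was 0.24 (adjusted p = 0.0171).

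The TAP subunits form the peptide pump of the endoplasmic reticulum membrane. Tap1 was read at 3.19, 4.01 and 3.05 CPM in double mutants and 3.88, 4.09 and 5.04 CPM in HD mice, at 2.61, 2.69 and 2.44 CPM in cGAS-KO mice and at 4.63, 3.75 and 2.45 CPM in WT mice. Tap2 was read at 8.06, 9.96 and 8.66 CPM in double mutants and 10.1, 11.7 and 11.1 CPM in HD mice, at 8.85, 7.85 and 4.75 CPM in cGAS-KO mice and at 10.6, 7.54 and 8.11 CPM in WT mice. Both had their highest group mean in HD mice and their lowest in cGAS-KO mice, and for both WT 1 was the highest WT library. Neither was called, with averaged knock-in log2 changes of 0.34 ± 0.15 for Tap1 and 0.32 ± 0.14 for Tap2 (edgeR, adjusted p = 0.174 and 0.164). The Tap1 libraries of double mutants lay above those of cGAS-KO mice without overlap, at a log2 change of 0.40 ± 0.22.

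None of the inducible catalytic subunits was called by edgeR in any comparison. Psmb8, which replaces Psmb5, was read at 2.51, 3.52 and 3.40 CPM in double mutants and 2.69, 3.89 and 3.73 CPM in HD mice, at 2.73, 3.10 and 2.20 CPM in cGAS-KO mice and at 3.76, 2.62 and 2.39 CPM in WT mice. All 4 groups overlapped, and its averaged log2 change was 0.23 ± 0.16 (edgeR, adjusted p = 0.388). Psmb10, which replaces Psmb7, was read at 18.0, 19.6 and 20.2 CPM in double mutants and 17.3, 19.8 and 20.4 CPM in HD mice, at 16.5, 16.0 and 13.7 CPM in cGAS-KO mice and at 17.1, 20.1 and 17.1 CPM in WT mice. The cGAS-KO libraries of Psmb10 lay below the WT libraries without overlap, as for 4.53% of all genes. The log2 change of Psmb10 was 0.32 ± 0.11 in double mutants against cGAS-KO mice and 0.08 ± 0.11 in HD against WT mice (edgeR, adjusted p = 0.121 and 0.737).

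Psmb9, which replaces Psmb6, was read at 1.41, 1.44 and 1.75 CPM in double mutants and 1.01, 1.53 and 1.51 CPM in HD mice, at 0.974, 0.684 and 0.763 CPM in cGAS-KO mice and at 2.17, 1.46 and 1.38 CPM in WT mice. All 3 cGAS-KO libraries lay below every WT library, as they did for Psmb10 and Tapbpl and for 4.53% of all genes. The log2 change was 0.93 ± 0.26 in double mutants against cGAS-KO mice and -0.30 ± 0.25 in HD against WT mice, and neither was called (edgeR, adjusted p = 0.0644 and 0.565). In cGAS-KO against WT mice it was -1.05 ± 0.26 (unadjusted p = 0.00131, adjusted p = 0.919). The interaction was a log2 value of 1.23 ± 0.36 (unadjusted p = 0.00424, adjusted p = 1.00), so the unequal knock-in changes did not pass the test over all genes. The comparisons of double mutants and of WT with cGAS-KO mice share the cGAS-KO libraries. DESeq2 called Psmb9 in double mutants against cGAS-KO mice (adjusted p = 0.0146).

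None of the standard subunits was called by edgeR. Psmb5, Psmb6 and Psmb7 had log2 changes of 0.03 ± 0.21, -0.02 ± 0.10 and 0.00 ± 0.10 in double mutants against cGAS-KO mice, and of 0.25 ± 0.20, 0.12 ± 0.10 and 0.23 ± 0.10 in HD against WT mice, where Psmb7 alone had an unadjusted p under 0.05. Summed over the 3 pairs, inducible subunits made 16.8% ± 0.962 of the CPM of the standard ones in double mutants and 14.4% ± 0.923 in HD mice, 13.3% ± 0.566 in cGAS-KO mice and 15.7% ± 1.69 in WT mice (SD, n = 3 each). The 3 double-mutant libraries lay between 15.7% and 17.5%, above all HD libraries (13.4% to 15.1%) and all cGAS-KO libraries (12.7% to 13.9%), and overlapped WT (13.9% to 17.2%). The inducible sum itself overlapped between double mutants (21.9 to 25.4 CPM) and HD mice (21.0 to 25.7 CPM). The standard sum was 127 to 161 CPM in double mutants and 157 to 174 CPM in HD mice. In double mutants against HD mice the log2 changes of Psmb5, Psmb6 and Psmb7 were -0.36 ± 0.21, -0.13 ± 0.10 and -0.24 ± 0.10. Psmb10 made up most of the inducible sum, at 21.4% to 29.4% of Psmb7 over the 12 libraries, while Psmb9 stood at 1.17% to 4.06% of Psmb6. No p is given for these sums.

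**Figure D2:**
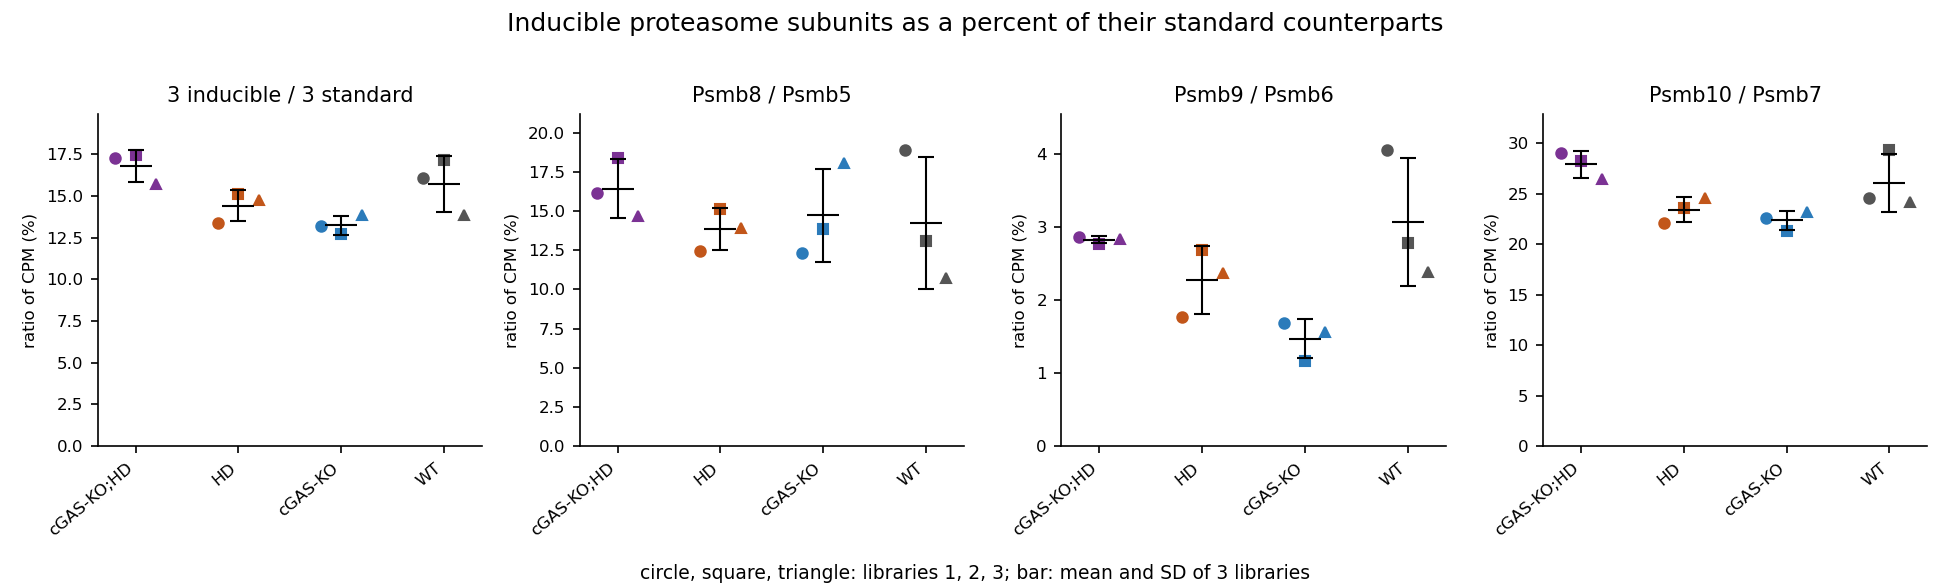
CPM of inducible subunits as a percent of their standard counterparts (y axis, from 0) for the sum of 3 pairs and for each pair, in cGAS-KO;HD, HD, cGAS-KO and WT libraries (x axis), with the mean and SD of 3 libraries. The summed percent is 16.8 in double mutants, 14.4 in HD, 13.3 in cGAS-KO and 15.7 in WT mice, and the Psmb9 to Psmb6 panel has its lowest points in cGAS-KO mice.

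B2m, the light chain of every MHC class I molecule, was read at 169.8, 150.1 and 118 CPM in double mutants and 109, 117 and 91.3 CPM in HD mice, at 76.1, 73.1 and 212 CPM in cGAS-KO mice and at 135, 103 and 87.9 CPM in WT mice. Library cGAS-KO 3, which stood apart in other ways, held the highest value of all 12, while the other cGAS-KO libraries held the 2 lowest. B2m was not called in any comparison, with a log2 change of 0.28 ± 0.37 in double mutants against cGAS-KO mice and -0.04 ± 0.37 in HD against WT mice (edgeR, adjusted p = 0.781 and 0.972). Without cGAS-KO 3, the log2 change of double mutants against cGAS-KO mice was 0.96 (adjusted p = 0.0271) and the averaged knock-in change 0.46 (adjusted p = 0.043). One library thus decided whether B2m was called.

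Counted over the set, 2 of 10 genes rose in double mutants against cGAS-KO mice and 0 fell, where 1.44% of all genes tested rose and 2.52% fell. In HD against WT mice 1 of 10 rose and 0 fell, where 1.43% of all genes rose and 2.67% fell. In the averaged knock-in effect 2 of 10 rose and 0 fell, where 5.59% of all genes rose and 7.63% fell. The median log2 change of the 10 genes was 0.32 in double mutants against cGAS-KO mice, 0.25 in HD against WT mice and 0.31 in the average, against medians over all genes of 0.00, 0.01 and 0.01. In double mutants against cGAS-KO mice 4 of 10 had an unadjusted p under 0.05 in edgeR, where 17.4% of all genes did. In HD against WT mice 3 of 10 did (18.8% of all genes), and in the average 6 of 10 (27.5% of all genes). Knock-in libraries lay above the others without overlap for 6 genes in double mutants against cGAS-KO mice (10.8% of all genes), for 3 in HD against WT mice (14.6%) and for 2 in the average (3.38%). HD against WT and double mutants against cGAS-KO share no libraries, and the average uses both again.

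**Figure D3:**
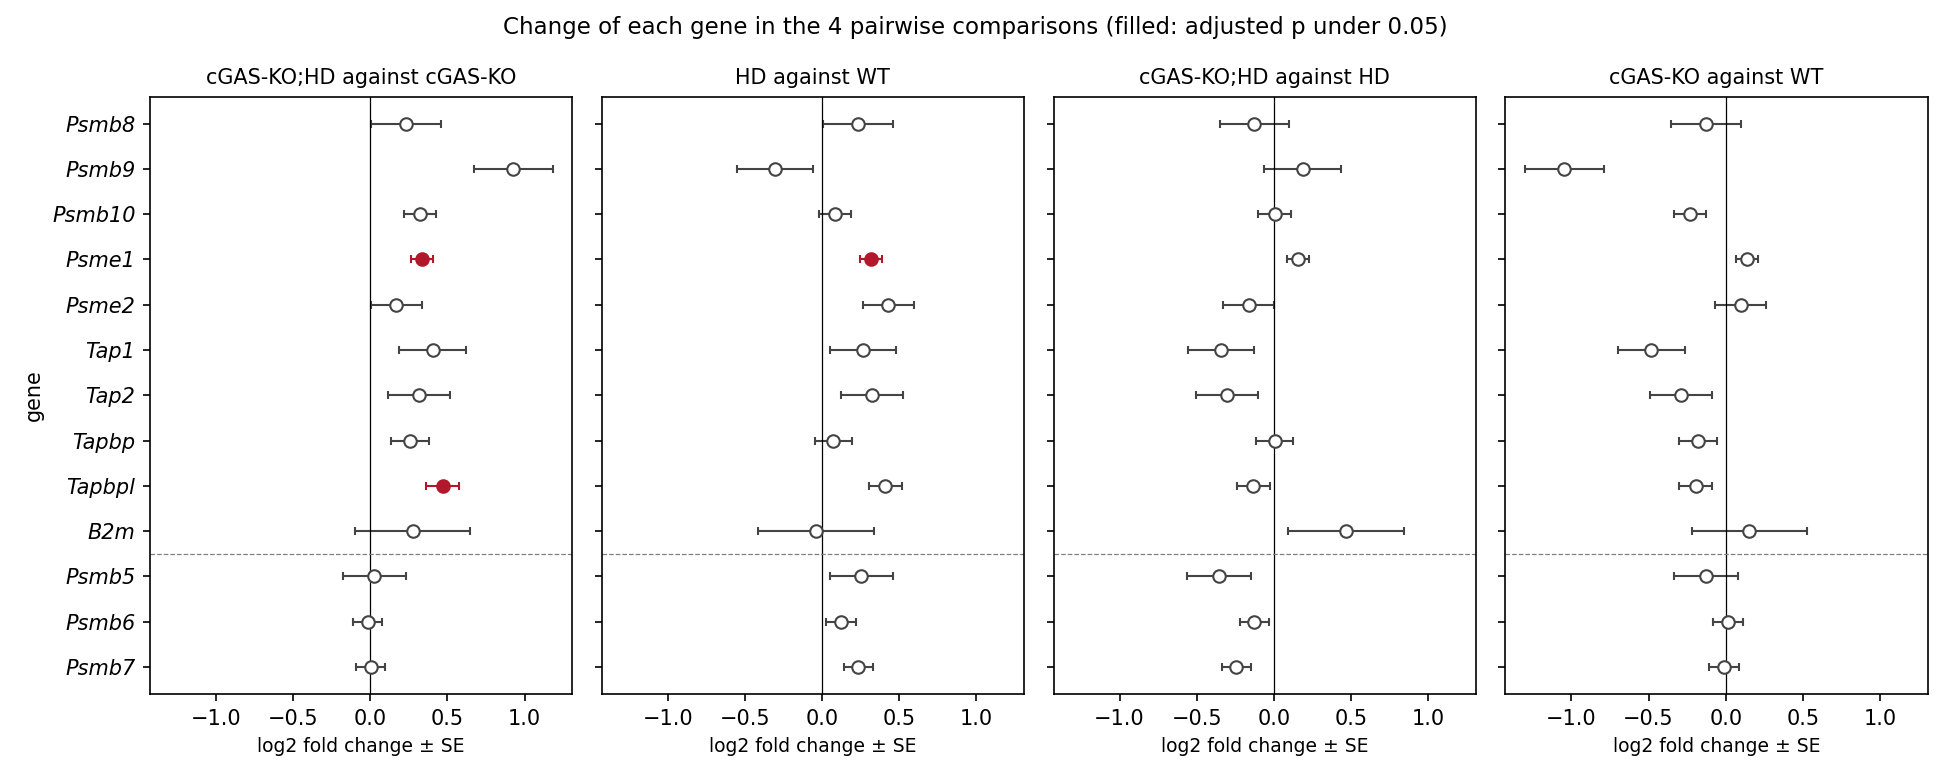
Log2 fold change with its SE (x axis) of the 10 genes and, below the dashed line, the standard subunits Psmb5, Psmb6 and Psmb7 (y axis) in 4 pairwise comparisons, filled where the adjusted p is under 0.05. Filled points are Psme1 at 0.34 and Tapbpl at 0.47 in double mutants against cGAS-KO mice and Psme1 at 0.32 in HD against WT mice, and the comparisons of cGAS genotypes have none.

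Deletion of cGAS changed no gene of the set past the threshold. In double mutants against HD mice edgeR called 0 of 10 (0.00469% of all genes, a single gene), with 1 of 10 at an unadjusted p under 0.05 (5.78% of all genes), and DESeq2 and limma-voom called 0. The log2 changes were 0.16 ± 0.07 for Psme1 and 0.47 ± 0.37 for B2m, both without overlap between libraries, as for 8.76% of all genes in that direction. Tap2 was lower without overlap at -0.30 ± 0.20, as for 8.33% of all genes, and Tap1 stood at -0.34 ± 0.21. The median log2 change of the set was -0.06.

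In cGAS-KO against WT mice edgeR also called 0 of 10 (0% of all genes), with 3 of 10 at an unadjusted p under 0.05 (4.28% of all genes), namely Psmb9, Psmb10 and Tap1, and DESeq2 and limma-voom called 0. The log2 changes of Psmb10 and Tap1 were -0.23 ± 0.11 and -0.48 ± 0.22. Psmb9, Psmb10 and Tapbpl lay below WT without overlap, as did 4.53% of all genes, and Psme1 lay above it at 0.14 ± 0.07, as did 4.25%. The averaged cGAS effect was not called for any gene of the set by edgeR, DESeq2 or limma-voom (0% of all genes in edgeR), with 4 of 10 at an unadjusted p under 0.05 (8.63% of all genes). These 4 were Psme1 at a log2 change of 0.15 ± 0.05, Psmb9 at -0.43 ± 0.18, Tap1 at -0.41 ± 0.15 and Tapbpl at -0.16 ± 0.08. The 6 libraries without cGAS and the 6 with it overlapped for every gene of the set, while 0.061% of all genes were higher and 0.183% lower without overlap. The interaction was called by none of these tools for any of the 10 (0.00469% of all genes in edgeR), with Psmb9 alone at an unadjusted p under 0.05 (2.84% of all genes). Values that miss the threshold with 3 libraries a group do not show that the groups were alike.

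Other genes of the pathway were counted from lists. In the averaged knock-in effect edgeR called 5.59% of all genes higher and 7.63% lower, and 27.5% had an unadjusted p under 0.05. DESeq2 called 7.56% of all genes higher. The 14 standard subunits of the 20S core had no call in the averaged knock-in effect by edgeR, DESeq2 or limma-voom and none at an unadjusted p under 0.05, with a median log2 change of 0.05. The same 3 tools called none of the 9 other activators and assembly factors (median 0.02, 1 at an unadjusted p under 0.05). The 14 measured MHC class I heavy chains had 0 calls in edgeR and limma-voom and 2 in DESeq2, with 5 at an unadjusted p under 0.05 and a median log2 change of 0.28. Among them Mr1 had the smallest p, at 0.38 ± 0.12 (edgeR, adjusted p = 0.0607). H2-K1 and H2-D1 stood at 0.32 ± 0.12 and 0.39 ± 0.13. Class I genes are related in sequence, so the counting could divide some reads between them. Erap1, which trims peptides in the endoplasmic reticulum, rose by 0.34 ± 0.10 (edgeR, adjusted p = 0.0371). It was 1 of 14 chaperone and trimming genes, where 5.59% of all genes rose, and no other of these was called.

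Of 17 measured transcriptional regulators of these genes, 4 rose with the averaged knock-in effect and none fell, where 5.59% of all genes rose. Nfya, a subunit of the CCAAT-binding factor NF-Y, rose by a log2 change of 0.48 ± 0.10 (edgeR, adjusted p = 0.00797), and Nfyc, another subunit, by 0.25 ± 0.08 (adjusted p = 0.0440). Irf9, the DNA-binding part of the complex that type I interferon activates, rose by 0.36 ± 0.08 (adjusted p = 0.0119) and the general activator Sp1 by 0.17 ± 0.04 (adjusted p = 0.0221). None of the 7 interferon receptors and kinases was called by edgeR, DESeq2 or limma-voom, and their median was 0.02. In edgeR 1 of them had an unadjusted p under 0.05 (27.5% of all genes). In double mutants against cGAS-KO mice and in HD against WT mice edgeR and limma-voom called none of the regulators. DESeq2 called 2 higher in each, where it called 3.03% and 3.09% of all genes higher. In edgeR 8 in double mutants and 3 in HD mice had an unadjusted p under 0.05, against 17.4% and 18.8% of all genes.

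Interferon-response genes outside the set were called as well. In the averaged knock-in effect 13 of 33 rose and none fell, with a median log2 change of 0.52, where 5.59% of all genes rose. Parp12 rose by 0.52 ± 0.06 (edgeR, adjusted p = 0.000189), Eif2ak2, the kinase PKR, by 0.75 ± 0.10 (adjusted p = 0.000356), Ifit2 by 0.59 ± 0.09 (adjusted p = 0.000769) and the GTPase gene Igtp by 0.54 ± 0.09 (adjusted p = 0.00245). Of the same genes 6 rose in double mutants against cGAS-KO mice and 4 in HD against WT mice, where 1.44% and 1.43% of all genes rose. Their summed level ran from 301 to 331 CPM in double mutants and 275 to 321 CPM in HD mice, against 177 to 263 CPM in cGAS-KO mice and 209 to 264 CPM in WT mice, with cGAS-KO 3 and WT 1 the highest of the libraries without the knock-in allele. Whether the list differed from the 10 genes was not tested.

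**Figure D4:**
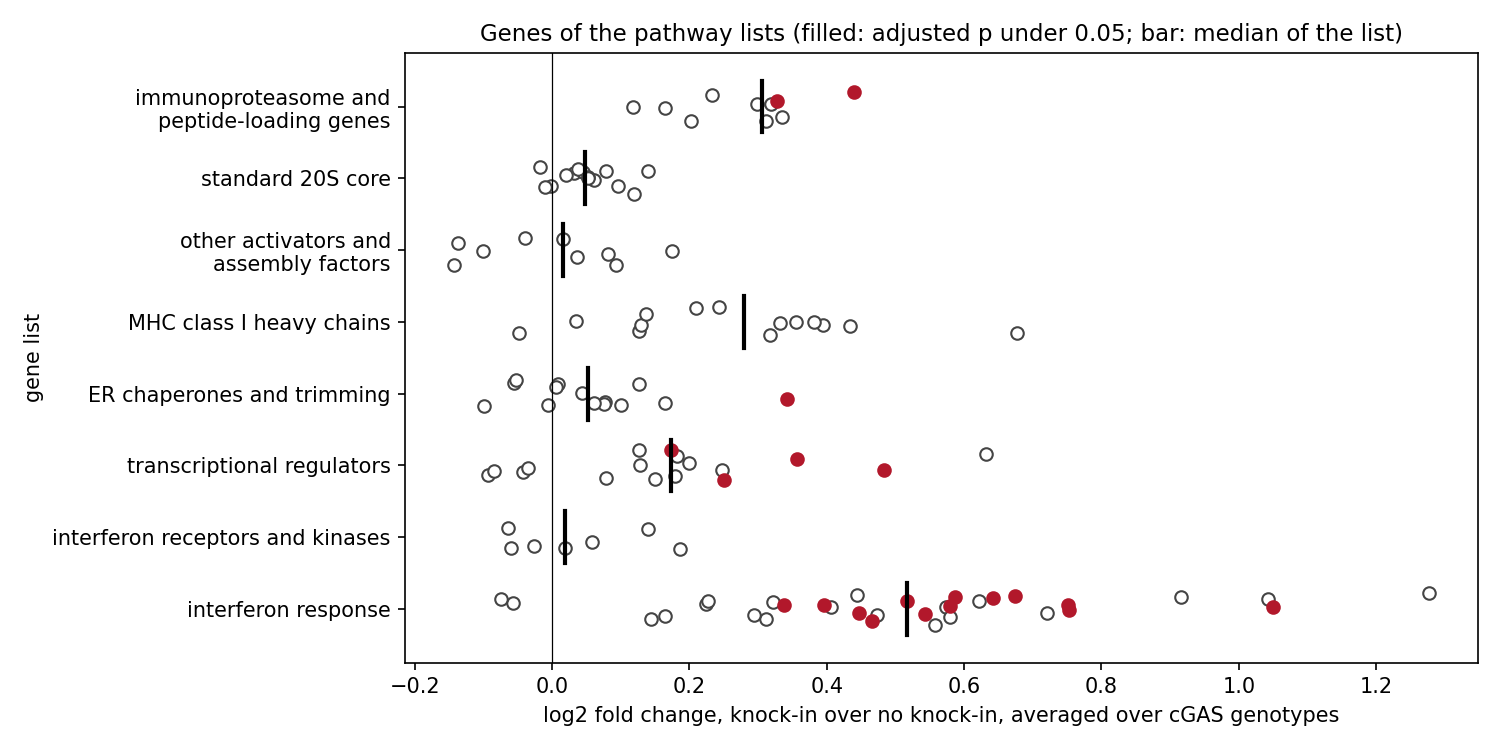
Log2 fold change of each measured gene, knock-in over no knock-in averaged over cGAS genotypes (x axis), by pathway list (y axis), filled where the adjusted p is under 0.05, with a bar at the median of each list. The medians are 0.31 for the 10 genes, 0.05 for the standard core, 0.28 for the class I heavy chains and 0.52 for the interferon-response list, which holds 13 filled points.

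The set was also counted without the libraries WT 1 and cGAS-KO 3, chosen after seeing the data. The libraries without the knock-in allele that remained were all low in Xist, while 4 of the 6 knock-in libraries were high in it. In that fit 5 of 10 genes rose in the averaged knock-in effect (Psme1, Tap2, Tapbp, Tapbpl and B2m), where 9.85% of all genes rose. In double mutants against cGAS-KO mice 3 rose (Psme1, Tapbpl and B2m), where 3.64% of all genes did, and in HD against WT mice 4 rose (Psme1, Psme2, Tap2 and Tapbpl), where 6.80% of all genes did. Calls thus became more frequent over all genes too. Of 34 interferon-response genes 27 then rose in the average, and 5 of 14 class I heavy chains did.

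Markers of other cells moved with some of these values. The summed level of 18 microglial markers was 711 to 781 CPM in double mutants and 668 to 751 CPM in HD mice, against 635 to 679 CPM in cGAS-KO mice and 657 to 831 CPM in WT mice. Double mutants thus lay above cGAS-KO mice without overlap, HD and WT overlapped, and the highest value belonged to WT 1. Of the 18, Sall1 and Tmem119 rose in the averaged knock-in effect, by log2 changes of 0.23 ± 0.07 and 0.27 ± 0.08 (edgeR, adjusted p = 0.037 and 0.0423), and none fell. Over all genes 5.59% rose and 7.63% fell in that comparison. The 10 endothelial markers summed to 62.1 to 101 CPM in double mutants and 95.4 to 121 CPM in HD mice. The sums were 100.5 to 117 CPM in cGAS-KO mice and 124 to 135 CPM in WT mice. Flt1 alone was called in the averaged knock-in effect and fell, while all 10 had a log2 change below 0, with a median of -0.30. In the averaged cGAS effect edgeR called none. The median there was -0.31, with 1 above 0 and 5 at an unadjusted p under 0.05 (8.63% of all genes). Of 10 T and NK cell markers, 8 (Cd3e, Cd3d, Cd3g, Cd8a, Cd8b1, Nkg7, Gzmb and Ncr1) stayed under 0.5 CPM in every library, and Trac ran from 0.512 to 1.57 CPM. The remaining marker, Cd4, was read at 14.5 to 16.0 CPM in double mutants and 9.14 to 19.4 CPM in HD mice, against 37.1 to 58.2 CPM in cGAS-KO mice and 35.5 to 46.6 CPM in WT mice. It fell in the averaged knock-in effect, at a log2 change of -1.58 ± 0.17 (edgeR, adjusted p = 0.000124), and in both comparisons within one cGAS genotype. Of the 5 genes of this list that were tested, 4 had an averaged log2 change above 0, and the median was 0.55. Cd4 alone was called, so its fall does not describe the list, and which cells held its RNA was not tested. The 8 astrocyte markers summed to 3307 to 3539 CPM in double mutants and 3198 to 3242 CPM in HD mice, against 3853 to 4520 CPM in cGAS-KO mice and 4065 to 4304 CPM in WT mice. All 6 knock-in libraries thus lay below the other 6, the same division of libraries as for Psme1 and Tapbpl in the other direction. The sum leaned on its highest marker, Slc1a2, at 1290 to 1576 CPM in knock-in libraries and 1840 to 2660 CPM in the others. The median averaged log2 change of the 8 markers was -0.06, so the sum does not describe a fall across the list. Among these markers Slc1a2 fell, at a log2 change of -0.61 ± 0.08, and Aqp4 rose, at 0.36 ± 0.09 (edgeR, adjusted p = 0.000472 and 0.0195). Of 7 oligodendrocyte markers edgeR called Mobp and Mal lower and none higher, and the sums of the 7 overlapped between knock-in and other libraries. Their median averaged log2 change was 0.23, with 4 above 0 and 6 at an unadjusted p under 0.05 in edgeR. DESeq2 called 2 higher and 2 lower, so the fall of Mobp and Mal does not describe the list. Of 6 MHC class II genes H2-DMa alone was called and fell. The median averaged log2 change of the 6 was 0.28, with 4 above 0, so H2-DMa does not describe the list. The median was 0.96 in double mutants against cGAS-KO mice, with 5 above 0, and -0.33 in HD against WT mice, with 1 above 0. None of 6 border macrophage markers was called by edgeR, DESeq2 or limma-voom, with none at an unadjusted p under 0.05 in edgeR. The sums of these 6 markers ran from 3.26 to 7.80 CPM. Of 10 cortical neuron markers Lamp5 fell, at an averaged log2 change of -0.83 ± 0.22 (edgeR, adjusted p = 0.0329), and none rose. Their median was -1.41, 3 had a change above 0, and 6 had an unadjusted p under 0.05 in edgeR. DESeq2 called 6 lower. Knock-in libraries summed to at most 413 CPM, against 752, 868 and 1274 CPM in WT 2, WT 3 and cGAS-KO 3. The sums overlapped, with 246, 423 and 307 CPM in WT 1, cGAS-KO 1 and cGAS-KO 2. The part of these cell types in the changes of Psme1, Tapbpl and the other genes was not tested.

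Over the 12 libraries, the genes outside the set whose levels most resembled the mean standardized level of the 10 were Hadh (r = 0.967), Zc2hc1c (r = 0.963), Anxa2 (r = 0.959), Lhfpl2 (r = 0.958) and Arpc1b (r = 0.955), among 15257 genes of at least 1 CPM. This is a description, since the libraries share their groups. The same measure for the set's own genes ran from 0.623 for Psme1 to 0.903 for Tapbpl, and was 0.126 for B2m. By this mean, cGAS-KO 3 was the lowest library (-1.18) and HD 3 the highest (0.83), and WT 1 (0.56) lay among the knock-in libraries.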

How the data were processed

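Striatal RNA of 12 mice was poly(A)-selected and prepared with a strand-keeping kit, per the labels' protocols. The authors deposited 1 table of raw read counts by Ensembl gene ID per mouse; their aligner, genome build, annotation and counting rule were not given in the sources used here. Groups and replicate numbers came from the sample titles. Symbols and positions came from GENCODE M21 (GRCm38) and matched 55141 of 55487 gene IDs. Promoters came from the RefSeq table of GRCm38.p6.

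Genes were kept by filterByExpr (minimum count 10, minimum total 15) over the 4 groups, scaled by TMM and fitted with one mean per group in edgeR's robust quasi-likelihood test (8 residual degrees of freedom). Adjusted p-values are Benjamini-Hochberg over all 21309 genes, called under 0.05, in 7 comparisons. Errors of log2 changes are standard errors of the fit and errors of CPM are SD of 3 libraries. CPM per kb uses the length of the principal transcript. The fit was tested on simulated data first. Each library is labelled as a separate mouse, and p-values measure the spread between mice. Intervals from counting were not used.

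The members, the 16 other gene lists and the tests were chosen with earlier results of these data known. Named genes were all 10 members, Psmb5, Psmb6 and Psmb7, Htt, Cgas, Xist and Ddx3y, up to 4 called genes of each list by p, or the one with the smallest p, and the 5 genes most correlated with the members' mean. H2-K1, H2-D1, Vamp1, Emc9, Gm19412 and Psme2b were named after their values were seen. One gene of the list of transcriptional regulators and one of the oligodendrocyte markers are not reported here and were left out of the counts. Alternatives were limma-voom, the Wald test and the size factors of DESeq2, no filter, a stricter one (1 CPM in at least 3 libraries), a block for replicate number, a fit on only the groups compared, Xist class as a covariate and each of 12 libraries left out. Software was DESeq2 1.42.0, limma 3.58.1 and edgeR 4.0.16 in R 4.3.3.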

Additional observations from a re-analysis of the deposited data

How the results depend on the processing

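Psme1 and Tapbpl kept their call in the averaged knock-in effect under all 20 alternatives, with log2 changes of 0.30 to 0.35 and 0.39 to 0.46. Within one cGAS genotype the calls were less stable. Of the 10 genes, 1 rose in HD against WT mice, and 0 did with no filter, 2 with the stricter filter, 2 in DESeq2, 2 in limma-voom, 0 to 1 with one library left out and 4 without WT 1 and cGAS-KO 3 together. Over all genes, 1.43% rose in that comparison, and 0.656%, 1.70%, 3.09%, 1.45%, 0.371% to 2.19% and 6.80% did under the same alternatives in the same order. In double mutants against cGAS-KO mice 2 rose, and 1 did with no filter, 0 in the fit on the compared groups alone, and 0 to 2 with one library left out, where 1.44%, 0.765%, 0.574% and 0.497% to 2.12% of all genes rose. In the average 2 rose, against 5 without WT 1 and cGAS-KO 3 together and 2 to 3 with one library left out, where 5.59%, 9.85% and 3.21% to 6.90% of all genes rose. With the replicate number as a block, 0 members rose in HD against WT mice and 1 in double mutants against cGAS-KO mice (0.741% and 0.967% of all genes). Deviations of same-numbered libraries correlated between -0.231 and 0.203. These values rest on 3 libraries a group and the labels give no litter, so they cannot decide whether the numbers pair the mice. Of 1200 single-gene values under alternatives, 8 changed sign with a value further than 1 SE from 0, none of them called. Psme2 in double mutants against cGAS-KO mice had -0.026 as its lowest and 0.39 as its highest log2 change with one library left out, and -0.025 without WT 1 and cGAS-KO 3 together. B2m in cGAS-KO against WT mice ran from -0.53 (without cGAS-KO 3) to 0.41 with one library left out and was -0.36 without both, where Tap2 was 0.091. In the averaged cGAS effect, Tapbp ran from -0.13 to 0.0023 (without WT 1) and B2m from -0.035 (without cGAS-KO 3) to 0.44 with one library left out, and Psme2 was 0.10 without both. The causes were not tested. Per kb of transcript, the log2 ratio of inducible to standard subunits was -3.07 in double mutants, -3.28 in HD, -3.41 in cGAS-KO and -3.17 in WT mice, against -2.57, -2.79, -2.92 and -2.68 from CPM without correction for length. Depth limits Psmb8, Psmb9 and Tap1, the genes with the fewest reads, while B2m, the gene with the most, had the largest SE of the set in both knock-in comparisons within one cGAS genotype (0.37 on the log2 scale).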
